A study of Homo sapiens with 12 samples.

Results

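The genes described here are 10 genes of MAPK feedback and output, taken by name from the gene table: the phosphatases DUSP1, DUSP4, DUSP5 and DUSP6, the inhibitors SPRY2, SPRY4 and SPRED1, and the output genes PHLDA1, ETV4 and ETV5. All 10 were found once each among the 59324 rows of the table, and all 10 passed the filter for testing (a mean of 1 TPM or more over all libraries), which 13937 genes passed. They were measured by RNA sequencing in MDA-MB-468, an established human breast cancer line of the triple-negative kind. Its 12 libraries formed 4 groups of 3: untreated control cells, cells given SAHA (10 µM, 12 h), cells given sonidegib (10 µM, 72 h), and cells pretreated with sonidegib before SAHA (the combination). SAHA (vorinostat) inhibits histone deacetylases, and sonidegib inhibits Smoothened, the transducer of the Hedgehog signal. How long control cells were kept, whether sonidegib stayed on during SAHA, and whether replicates are separate cultures is not given in the sources used here. The p-values thus rest on library-to-library spread within groups, which may be technical.

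In the MAPK cascade a growth factor receptor such as EGFR switches on RAS, which activates the kinases RAF, MEK and ERK in turn. Active ERK induces genes that act back on the cascade: dual-specificity phosphatases remove the activating phosphates from ERK and its relatives, and Sprouty and SPRED proteins hold back signalling at the level of RAS and RAF. The same signal induces transcription factors of the PEA3 group, ETV4 and ETV5, so that the mRNA levels of such genes are widely read as a gauge of ERK output. EGFR is amplified in MDA-MB-468 cells.

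Values are TPM, a share of transcripts scaled to the same total in every library and corrected for transcript length. Read counts cannot be had from TPM, and sequencing depth is unknown. Changes are log2 fold changes of TPM + 1 with the standard error (SE) from limma, and levels are mean TPM ± SD with n = 3 libraries per group. The added 1 understates the change of genes at a few TPM. A gene was called at a Benjamini-Hochberg adjusted p under 0.05 over all tested genes. Epithelial genes of the line were present (KRT19 at 4248 and EGFR at 623 TPM in control), ESR1 stayed under 2 TPM, and PGR was listed at 0 in every library. ERBB2, the third gene the triple-negative name refers to, was at 9.34 to 11.5 TPM in control, 3.05 to 4.62 with SAHA, 22.5 to 26.3 with sonidegib and 5.65 to 7.39 in the combination. Markers of other cell types had few genes at a mean of 1 TPM: CD14 and CD68 of 5 leukocyte markers, with PTPRC and CD3E near 0, COL1A1 of 4 fibroblast markers, and none of 3 endothelial markers. The summed leukocyte list ranged from 301 to 326 TPM in control, 310 to 346 with SAHA, 312 to 323 with sonidegib and 216 to 232 in combination libraries, nearly all of it CD14. The fibroblast list summed to 3.19 to 4.5, 10.3 to 13, 4.6 to 7.08 and 9.61 to 10.2 TPM in the same order, and the endothelial list stayed under 1.1 TPM. The part of these markers in the results was not tested. The 5S ribosomal RNA genes were listed at 0 in the 6 libraries without sonidegib and summed to 1488 to 12641 TPM in the 6 with it. In comparisons across these sets, whatever set the 5S values apart cannot be told apart from sonidegib, whereas 2 comparisons, SAHA with control and combination with sonidegib, stay within a set. Mitochondrial ribosomal RNA also differed, at 0.565% to 0.67% of TPM in control and 1.18% to 1.35% with SAHA. It was at 2.06% to 2.86% in the 6 libraries with sonidegib. In a fit without ribosomal RNA and mitochondrial genes, rescaled to the same total, none of the genes described here lost a call. ETV5 gained calls as higher with sonidegib (log2 change 0.25) and with the combination (0.28), both against control. SPRY4 gained them in the combination against control (0.32) and against sonidegib (0.35). Other differences that may go with these RNAs were not tested.

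In control cells ETV4 was the highest of the 10, at 25.2 ± 0.37 TPM, followed by PHLDA1, a pleckstrin-homology-like protein of growth factor responses, at 21.9 ± 2.59 and DUSP4, a nuclear phosphatase of ERK, at 21.6 ± 2.41 TPM. The libraries of neighbours in this order overlapped among these highest genes. DUSP5 (10.7 ± 1.28 TPM) and ETV5 (10.1 ± 0.366 TPM) came next and also overlapped. Below them stood SPRY2 (7.23 ± 0.243 TPM) and SPRED1 (5.69 ± 1), whose libraries lay apart from their neighbours. DUSP6 (3.79 ± 0.669), DUSP1 (3.2 ± 0.462) and SPRY4 (2.58 ± 0.194 TPM) were lowest, each overlapping the next. SAHA changed this order, with DUSP5 first at 45.8 ± 1.15 TPM and its libraries apart from those of DUSP4 at 27.1 ± 1.06 TPM. With sonidegib and with the combination ETV4 was again first, at 27.9 ± 2.79 and 17.7 ± 1.6 TPM, apart from the second gene with sonidegib and overlapping it with the combination. The plot of TPM by library shows these levels for each gene.

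**Figure D1:**
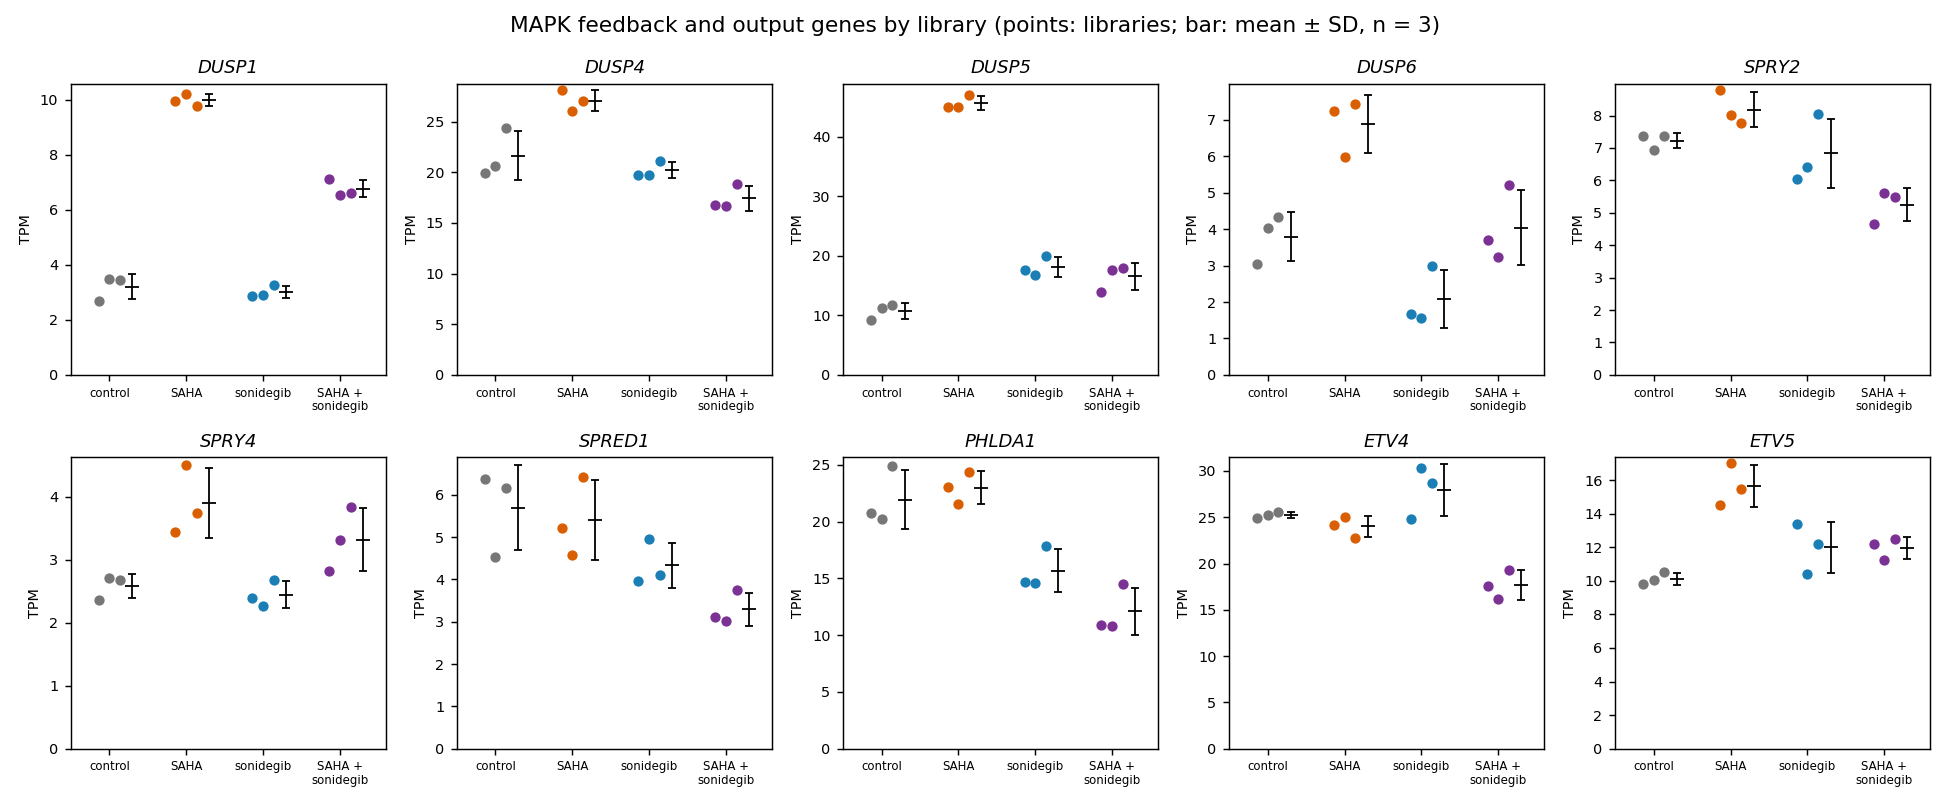
TPM of the 10 genes (vertical axis, from 0) in each library of the 4 groups (horizontal axis); points are libraries, and the black bar beside them is the mean ± SD of 3. DUSP5 stands between 45.1 and 47.1 TPM in the SAHA libraries and at 20.1 TPM or less in all others. The combination libraries of DUSP4, SPRY2, SPRED1, PHLDA1 and ETV4 lie below every library of the other groups.

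SAHA alone raised DUSP5 most and DUSP1 next, raised DUSP6, ETV5, SPRY4 and DUSP4 less, and left SPRY2, SPRED1, PHLDA1 and ETV4 without a call. Of the 10 genes 6 rose and none fell, where 31.8% of all tested genes rose and 26.9% fell. The 10 had a median log2 change of 0.38, against 0.05 over all tested genes. In bulk RNA more transcript per cell and more cells that make the transcript cannot be told apart.

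DUSP5 (ENSG00000138166, chromosome 10, 110497838 to 110511544, plus strand, GRCh38), a nuclear phosphatase selective for ERK, measured 9.29, 11.2 and 11.7 TPM in control and 45.1, 45.1 and 47.1 TPM with SAHA. The groups lay far apart, and the SAHA mean was 4.26 times the control mean. Its log2 change was 2.0 ± 0.11 (limma adjusted p = 4.66e-08), rank 165 from the top among the 13937 tested genes.

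DUSP1 (ENSG00000120129, chromosome 5, 172768090 to 172771195, minus strand), an immediate-early nuclear phosphatase that acts on p38, JNK and ERK, went from 2.67, 3.48 and 3.46 TPM in control to 9.93, 10.2 and 9.78 TPM with SAHA. No control library came near the SAHA libraries, and the ratio of means was 3.11. The log2 change was 1.39 ± 0.0987 (limma adjusted p = 3.38e-07).

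DUSP6 (ENSG00000139318, chromosome 12, 89347232 to 89353271, minus strand), the cytoplasmic phosphatase that acts as a feedback regulator of ERK, had 3.04, 4.02 and 4.32 TPM in control and 7.24, 5.97 and 7.43 TPM with SAHA. Every SAHA library exceeded every control library (0.72 ± 0.198, limma adjusted p = 0.00819). DUSP4 (ENSG00000120875, chromosome 8, 29333064 to 29350668, minus strand) rose least of the 4, from 19.9, 20.6 and 24.4 to 28.2, 26.1 and 27 TPM, again without overlap (0.31 ± 0.0822, adjusted p = 0.00625).

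Among the inhibitors, SPRY4 (ENSG00000187678, chromosome 5, 142310427 to 142326455, minus strand), a Sprouty that restrains receptor signalling to RAS and RAF, rose from 2.36, 2.71 and 2.68 to 3.44, 4.51 and 3.74 TPM (0.45 ± 0.127, adjusted p = 0.01). Its relative SPRY2 (ENSG00000136158, chromosome 13, 80335976 to 80340951, minus strand) was at 7.38, 6.95 and 7.36 TPM in control and 8.78, 8.01 and 7.76 TPM with SAHA. The libraries of SPRY2 did not overlap, yet the change missed the threshold (0.16, 95% interval -0.08 to 0.39, limma adjusted p = 0.231). SPRED1 (ENSG00000166068, chromosome 15, 38252326 to 38357249, plus strand), which brings the RAS inhibitor neurofibromin to the membrane, overlapped fully, at 4.54 to 6.37 TPM in control and 4.57 to 6.43 TPM with SAHA (-0.06, interval -0.38 to 0.26).

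Of the 3 output genes only ETV5 rose with SAHA. ETV5 (ENSG00000244405, chromosome 3, 186046308 to 186110318, minus strand) rose from 9.79, 10 and 10.5 to 14.5, 17 and 15.5 TPM, with all SAHA libraries above control (0.58 ± 0.0941, adjusted p = 0.000243). Its paralogue ETV4 (ENSG00000175832, chromosome 17, 43527844 to 43579620, minus strand) had 24.9, 25.2 and 25.6 TPM in control and 24.2, 25 and 22.8 TPM with SAHA, and the groups overlapped (-0.07, interval -0.25 to 0.11, adjusted p = 0.501). ETV4 overlaps DHX8 on the opposite strand, a gene at up to 25.7 TPM, and since the strand setting of the counting is not given, reads of the pair may be mixed. The other genes annotated over the 10 members stayed under 1 TPM in every library. PHLDA1 (ENSG00000139289, chromosome 12, 76025447 to 76033932, minus strand) was at 20.2 to 24.9 TPM in control and 21.6 to 24.4 TPM with SAHA (0.07, interval -0.20 to 0.34). All 6 calls held under each alternative in which the gene was tested; DUSP6 and SPRY4 were below a filter at a mean of 5 TPM.

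Promoter sequence from RefSeq (GRCh38.p14) was at hand for 6 of the 10 genes. There was none for DUSP4, DUSP5 and ETV5, which rose with SAHA, nor for ETV4. That of DUSP1, which rose with SAHA, is set beside that of SPRY2, which was not called, as the 250 bases before the start, 5′ to 3′ on the minus strand, which hold no exon of GENCODE 29. Capitals mark the cyclic AMP response element TGACGTCA and its half-site TGACG, the core CGGAA bound by ETS factors and the TATA box TATAAA, each on either strand; the half-site is part of the full element.
DUSP1, chr5:172771196-172771445: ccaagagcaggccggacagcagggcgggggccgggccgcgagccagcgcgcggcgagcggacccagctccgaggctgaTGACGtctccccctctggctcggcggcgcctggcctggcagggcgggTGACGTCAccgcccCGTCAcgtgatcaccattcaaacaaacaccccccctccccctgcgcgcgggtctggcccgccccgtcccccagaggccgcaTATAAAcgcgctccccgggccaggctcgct
SPRY2, chr13:80341127-80341376: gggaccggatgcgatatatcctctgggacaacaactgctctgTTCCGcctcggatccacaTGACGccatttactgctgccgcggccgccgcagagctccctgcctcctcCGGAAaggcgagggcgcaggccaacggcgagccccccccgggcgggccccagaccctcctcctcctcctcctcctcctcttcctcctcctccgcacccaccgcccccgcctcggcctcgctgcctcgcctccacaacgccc
The DUSP1 window held 1 full element, which 1.65% of the 35116 promoter windows of this length held, 4 matches to the half-site in all (21.2% of windows held at least 1) and a TATA box 30 bases before the start (10.7% of windows), but no ETS core. SPRY2 has further starts, whose windows held none of the marked motifs. Its outermost window, printed here, held 1 half-site and 2 ETS cores (30.3% of windows held the core) and no TATA box. The windows of DUSP6 and SPRY4, which also rose with SAHA, held no full element and no TATA box. DUSP6 held 3 ETS cores and SPRY4 held 1 half-site. Of the genes without a call, PHLDA1 held 2 ETS cores and SPRED1 held none of these motifs. The windows of these 4 genes reach into annotated exons and are not printed. All these matches are letters in a window, and binding was not measured.

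Sonidegib alone moved few of the 10 genes. DUSP5 rose, DUSP6 and PHLDA1 fell, and 7 were not called, where 26.1% of tested genes rose and 29.2% fell. The median change of the 10 was -0.07, against -0.02 over all tested genes. DUSP5 measured 17.7, 16.8 and 20.1 TPM with sonidegib, all above the control libraries (0.71 ± 0.11, limma adjusted p = 0.000221). DUSP6 had 1.66, 1.57 and 2.99 TPM, all below control (-0.66 ± 0.198, adjusted p = 0.0143). That call was lost without control replicate 3, sonidegib replicate 1 or sonidegib replicate 2, at -0.58, -0.57 and -0.55 (adjusted p = 0.0524, 0.0557 and 0.0599).

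PHLDA1 fell to 14.7, 14.6 and 17.8 TPM, again below every control library (-0.46 ± 0.123, adjusted p = 0.00818). DUSP1 (2.85 to 3.25 TPM), DUSP4 (19.7 to 21.2), SPRY2 (6.05 to 8.04) and SPRY4 (2.26 to 2.68) overlapped control. SPRED1 at 3.96 to 4.95 TPM (-0.32, adjusted p = 0.0861), ETV5 at 10.4 to 13.4 TPM (0.22, adjusted p = 0.0667) and ETV4 at 24.9 to 30.3 TPM (0.14, adjusted p = 0.188) overlapped it too. Leaving out control replicate 2 brought SPRED1 past the threshold (-0.45), as did quantile scaling (-0.37), leaving out sonidegib replicate 1 did so for ETV4 (0.22) and leaving out sonidegib replicate 2 for ETV5 (0.31).

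The effect of SAHA in cells pretreated with sonidegib is read from the combination against sonidegib. Against sonidegib, the combination raised DUSP1 and DUSP6, lowered SPRY2, PHLDA1 and ETV4, and left 5 genes without a call, where 17.5% of tested genes rose and 21% fell. DUSP1 rose to 7.11, 6.54 and 6.61 TPM, all above sonidegib (0.96 ± 0.0987, limma adjusted p = 2.54e-05). DUSP5, by contrast, was at 13.9, 17.7 and 18 TPM, within or below the sonidegib libraries (-0.13, interval -0.38 to 0.11, adjusted p = 0.375).

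DUSP6 rose to 3.69, 3.23 and 5.2 TPM (0.72 ± 0.198, adjusted p = 0.0132), the same size of change as with SAHA alone. ETV4 fell to 17.6, 16.1 and 19.3 TPM, below all libraries of the other groups (-0.63 ± 0.0839, adjusted p = 0.000147). SPRY2 fell to 4.67, 5.62 and 5.48 TPM (-0.32 ± 0.107, adjusted p = 0.0346) and PHLDA1 to 10.9, 10.8 and 14.5 TPM (-0.36 ± 0.123, adjusted p = 0.0396), both without overlap. DUSP4 (16.7 to 18.9 TPM, adjusted p = 0.0722), SPRY4 (2.82 to 3.83 TPM, adjusted p = 0.0651) and SPRED1 (3.02 to 3.75 TPM, adjusted p = 0.116) did not overlap sonidegib but missed the threshold, and ETV5 (11.2 to 12.5 TPM, log2 change 0.00) overlapped it. The count fell to 3, 2 and 3 without sonidegib replicate 1, 2 or 3 and to 2 with only the compared groups in the fit; DUSP1 and ETV4 were called in every alternative. The DUSP6 call was lost without sonidegib replicate 1 or 2 or combination replicate 3 (0.64, 0.61 and 0.57), and that of SPRY2 without sonidegib replicate 2 or 3 or combination replicate 1 or 3 (-0.35, -0.21, -0.25 and -0.35). That of PHLDA1 was lost without SAHA replicate 1, any sonidegib replicate or combination replicate 1 or 2 (-0.36, -0.40, -0.41, -0.27, -0.30 and -0.29). SPRY4 gained a call in 7 of 22 alternatives and DUSP4 in 6 of 23. Among these were median-of-ratios, 75th percentile and quantile scaling for both genes (0.34, 0.34 and 0.41, and -0.18, -0.19 and -0.18). Leaving out combination replicate 1 (0.41) did so for SPRY4, and leaving out control replicate 3 or combination replicate 3 (-0.20 and -0.26) for DUSP4.

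Against SAHA alone, 9 of the 10 genes were lower in the combination and none was higher, where 33% of tested genes were lower and 18% higher. DUSP5 fell most, from between 45.1 and 47.1 TPM to between 13.9 and 18 TPM, a ratio of means of 0.362 (-1.42 ± 0.11, limma adjusted p = 1.34e-06). PHLDA1 fell from 23 ± 1.43 to 12.1 ± 2.1 TPM (-0.89 ± 0.123, adjusted p = 0.000113), and DUSP4 fell from 27.1 ± 1.06 to 17.4 ± 1.22 TPM (-0.61 ± 0.0822, adjusted p = 9.1e-05). SPRY4 was the exception, at 3.9 ± 0.552 and 3.32 ± 0.505 TPM with overlapping libraries (-0.18, interval -0.46 to 0.10).

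Log2 changes of the other members were -0.66 for DUSP6, -0.57 for SPRED1, -0.56 for SPRY2, -0.50 for DUSP1, -0.43 for ETV4 and -0.36 for ETV5, none with overlapping libraries. All tested genes had a median change of -0.12 in this comparison, and median-of-ratios, 75th percentile and quantile scaling moved it to 0.00 and the share of calls that were higher from 35.3% to 49.6%, 50.2% and 50.1%. Relative to that median DUSP5 was at -1.30, PHLDA1 at -0.77, DUSP6 at -0.54, DUSP4 at -0.49, SPRED1 at -0.45, SPRY2 at -0.44, DUSP1 at -0.38, ETV4 at -0.31, ETV5 at -0.24 and SPRY4 at -0.06. Under each of these scalings 8 of the 10 stayed called, and ETV5 lost its call (-0.23, -0.23 and -0.24). DUSP6 lost its call (adjusted p from 0.0502 to 0.0653) without SAHA replicate 1, SAHA replicate 3, combination replicate 1 or combination replicate 2, at log2 changes between -0.62 and -0.54.

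**Figure D2:**
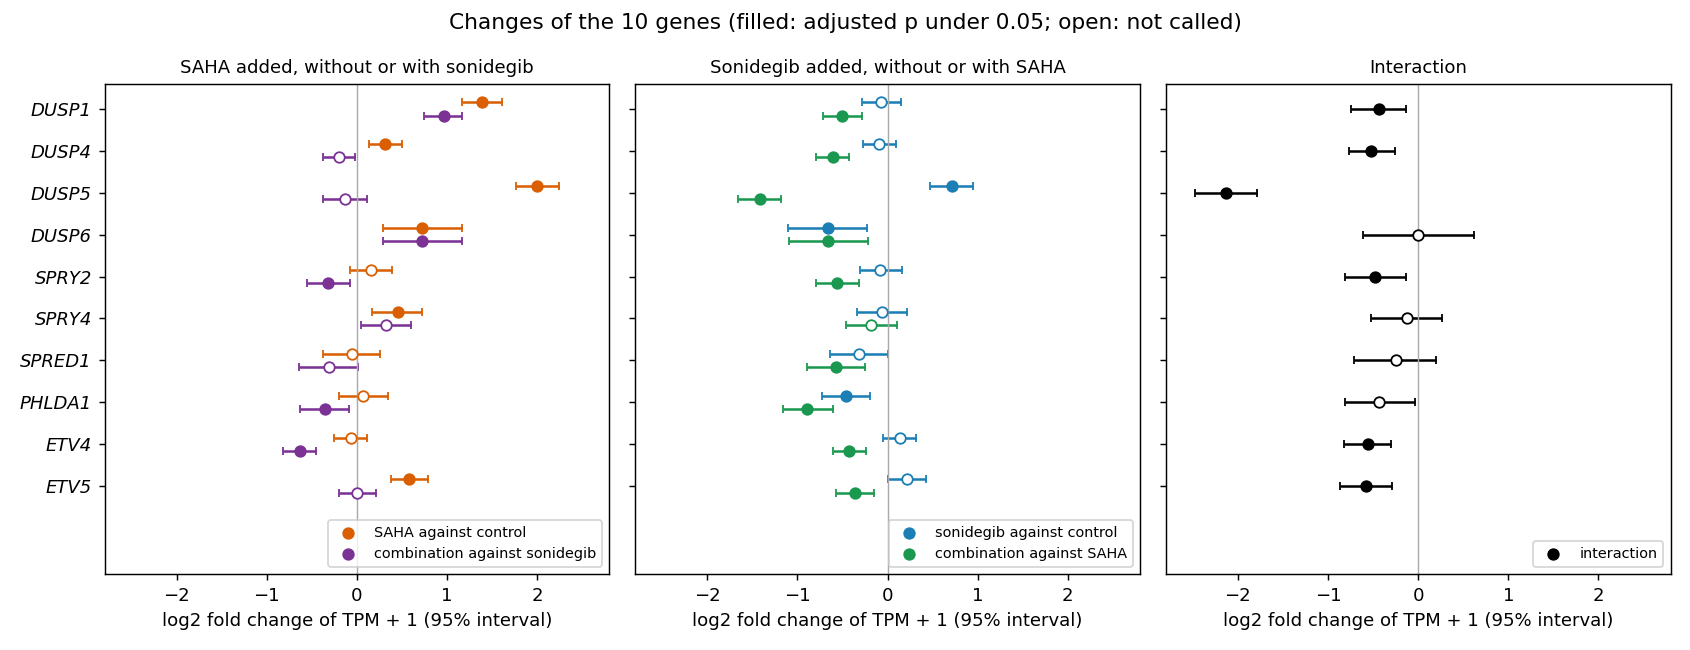
Log2 fold change of TPM + 1 with its 95% interval (horizontal axis) for each of the 10 genes (vertical axis): adding SAHA without or with sonidegib (left), adding sonidegib without or with SAHA (middle), and the interaction (right); filled points were called and open points were not. DUSP5 is at 2.0 with SAHA alone and -0.13 with SAHA after sonidegib, and 6 genes are called below 0 in the interaction.

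The interaction asks whether SAHA acted differently with sonidegib than without it: it is the change in the combination against sonidegib minus the change with SAHA against control, and is 0 where the log2 changes of the drugs add up. It was below 0 and called for 6 of the 10 genes and above 0 for none, where 19.7% of tested genes were called lower and 11.8% higher. The median of the 10 was -0.45, against -0.07 over all tested genes. DUSP5 had an interaction of -2.13 ± 0.156 (limma adjusted p = 3.41e-06), rank 86 from the bottom among the 13937 tested genes. SAHA alone and sonidegib alone each raised DUSP5, by 2.0 and 0.71, while the combination stood 0.58 above control.

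ETV5 (-0.58 ± 0.133, adjusted p = 0.0067), ETV4 (-0.56 ± 0.119, adjusted p = 0.00411) and DUSP4 (-0.52 ± 0.116, adjusted p = 0.00585) were called in every alternative, as DUSP5 was. SPRY2 (-0.48 ± 0.151, adjusted p = 0.033) lost its call in 9 of 22 alternatives and DUSP1 (-0.43 ± 0.14, adjusted p = 0.035) in 14 of 22, with adjusted p between 0.0249 and 0.0784 for SPRY2 and between 0.0112 and 0.269 for DUSP1. Left out in turn, control replicates 1, 2 and 3, SAHA replicates 1 and 2, sonidegib replicate 3 and combination replicate 1 each ended the SPRY2 call (log2 -0.49, -0.45, -0.49, -0.43, -0.49, -0.37 and -0.41). Leaving out control replicate 1, SAHA replicate 1, 2 or 3, sonidegib replicate 2 or 3, or combination replicate 2 or 3 ended that of DUSP1 (log2 -0.34, -0.44, -0.42, -0.45, -0.45, -0.39, -0.41 and -0.42). With the median-of-ratios, 75th percentile and quantile scaling the share of called genes that were higher went from 37.5% to 53.4%, 48.6% and 50.3%. DUSP1 was called under none of these scalings, and SPRY2 was not called under quantile scaling (-0.37, limma adjusted p = 0.0526). DUSP6 had an interaction of 0.00 with a wide interval (-0.61 to 0.62), and those of SPRY4 (-0.52 to 0.27), SPRED1 (-0.71 to 0.20) and PHLDA1 (-0.81 to -0.04, adjusted p = 0.0859) were not called. PHLDA1 passed the threshold in 4 of 22 alternatives, among them quantile scaling (-0.36, adjusted p = 0.0438) and leaving out control replicate 3 or combination replicate 3 (-0.52 and -0.56).

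Against control, the combination left 2 of the 10 genes higher and 5 lower, where 29.7% of tested genes were higher and 34% lower, with a median of -0.11 for the 10 and -0.02 over all. DUSP1 (0.89 ± 0.0987, limma adjusted p = 1.07e-05) and DUSP5 (0.58 ± 0.11, adjusted p = 0.000735) were higher in all 3 libraries. PHLDA1 (-0.82 ± 0.123), SPRED1 (-0.63 ± 0.147), ETV4 (-0.50 ± 0.0839), SPRY2 (-0.40 ± 0.107) and DUSP4 (-0.29 ± 0.0822) were lower in all 3, with adjusted p from 0.000128 to 0.00862. DUSP4, SPRY2, SPRED1 and ETV4 were called lower than control here and with neither drug alone. DUSP4 was called higher with SAHA, and SPRED1 passed with sonidegib under the alternatives given above and had no called interaction. DUSP6, SPRY4 and ETV5 were not called (adjusted p = 0.799, 0.0884 and 0.0563), and median-of-ratios or 75th percentile scaling brought SPRY4 (0.30 and 0.32) and ETV5 (0.27 and 0.30) past the threshold as higher. So did leaving out combination replicate 1 for SPRY4 (0.35) and sonidegib replicate 1 or 2 for ETV5 (0.22 each).

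Summed over DUSP1, DUSP4, DUSP5 and DUSP6, the phosphatase mRNA came to 39.4 ± 4.49 TPM in control, 89.7 ± 2.11 with SAHA, 43.5 ± 3.47 with sonidegib and 44.8 ± 3.63 in the combination. The SAHA libraries, at 87.3 to 91.3 TPM, lay apart from all others, which ranged from 34.9 to 48.7 TPM. The makeup of the sum also differed. DUSP5 held 27.3% ± 1.1 of it in control, 51% ± 0.996 with SAHA, 41.8% ± 0.748 with sonidegib and 36.9% ± 3.28 in the combination. DUSP4 held 55% ± 2.36, 30.2% ± 0.829, 46.6% ± 1.86 and 39% ± 1.35 in the same order. DUSP1 was at 15.2% ± 1.81 in the combination and at 11.7% or less in every library of the other groups. The stacked plot of phosphatase mRNA shows that sums close to control had a different makeup in the combination.

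**Figure D3:**
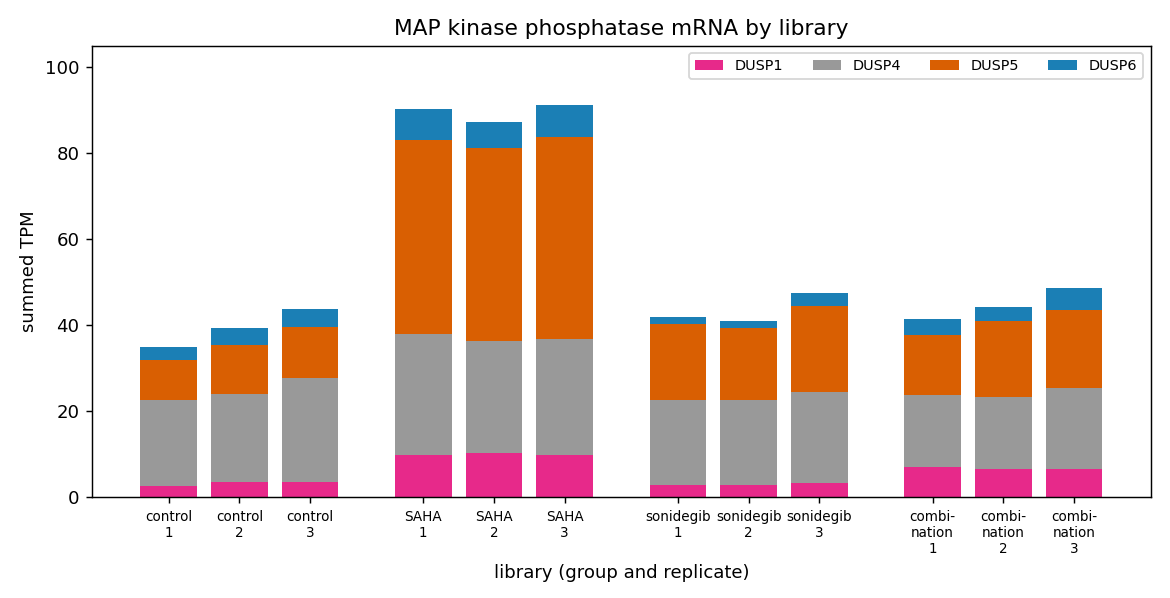
Summed TPM (vertical axis, from 0) of DUSP1, DUSP4, DUSP5 and DUSP6, stacked by gene, in each of the 12 libraries (horizontal axis). The SAHA libraries reach 87.3 to 91.3 TPM with DUSP5 as the largest part, and the other groups lie between 34.9 and 48.7 TPM.

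Control replicate 3 was the highest of its group for 6 of the 10 genes, sonidegib replicate 3 for 7 and combination replicate 3 for 8, and none of these was the lowest for any. The SAHA group showed no such library: its replicates 1, 2 and 3 were highest for 2, 4 and 4 genes and lowest for 2, 5 and 3. Sonidegib replicate 3 also had the highest 5S ribosomal RNA sum (12641 TPM), whereas combination replicate 3 had the lowest of the sonidegib-treated libraries (1488 TPM). Higher values in these libraries were not confined to the 10 genes. Without control replicate 3 the median of all tested genes with SAHA against control went from 0.05 to 0.08. Without sonidegib replicate 3 that of sonidegib against control went from -0.02 to -0.04. Without combination replicate 3 that of the combination against control went from -0.02 to -0.07. Calls that changed without these libraries are given with the comparisons, and the cause was not tested.

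The members fell into patterns over the 4 groups. By the root mean square difference of centred log2 group means, the closest members were DUSP4 and SPRY2 (0.071), SPRY2 and SPRED1 (0.1), SPRED1 and PHLDA1 (0.124) and SPRY4 and ETV5 (0.125), while DUSP1 and ETV4 were farthest apart (0.766). DUSP5 was at least 0.443 from each other member. Among the tested genes with at least 10 TPM in some group, COL4A1, a basement membrane collagen, was closest to DUSP5 (0.0549), with mean TPM of 2.47, 14.3, 3.82 and 4.83 in control, SAHA, sonidegib and combination. TIMP2, an inhibitor of metalloproteases, followed at 0.0806. Among the 3 genes closest to DUSP1 was ABCD3, a peroxisomal transporter (0.0223), with 42.3, 113, 39.4 and 76.6 TPM in that order. These are likenesses of group means over 4 groups only.

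Other ERK-responsive genes, 15 of a list of 18 tested, included 9 that rose and 4 that fell with SAHA (31.8% and 26.9% of all tested genes), with a median change of 0.39. Against SAHA alone, 10 of the 15 were lower in the combination and none was higher (33% and 18% of all tested genes; median -0.76, against -0.12), and 8 had a called interaction below 0 and none above (19.7% and 11.8% of all tested genes; median -0.50, against -0.07). With sonidegib 2 rose and 5 fell (26.1% and 29.2% of all tested genes). Against sonidegib the combination raised 3 and lowered 6 (17.5% and 21%), and against control it raised 4 and lowered 7 (29.7% and 34%). EGR1, an immediate-early transcription factor, rose from 2.65, 2.04 and 3 TPM to 16.2, 18.9 and 17.6 TPM with SAHA (2.39 ± 0.112, limma adjusted p = 1.46e-08). It was at 7.41, 6.84 and 7.48 TPM in the combination, apart from both, and its interaction was -1.21 ± 0.159 (adjusted p = 0.000195). FOS, its companion among immediate-early genes, had means of 2.81, 16.3, 3.69 and 8.77 TPM in control, SAHA, sonidegib and combination (interaction -1.12 ± 0.167, adjusted p = 0.000453). For both, as for DUSP1, every combination library lay between the control and the SAHA libraries.

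CCND1, the gene of cyclin D1, which drives entry into the cell cycle, fell in each treated group. It went from 70.8 ± 3.74 TPM to 37.2 ± 4.3 with SAHA and 51.7 ± 1.74 with sonidegib, and to 16.9 ± 2.29 with the combination (-2.01 ± 0.0983 against control, adjusted p = 1.42e-08). DUSP2, an inducible nuclear phosphatase, fell from 4.47 ± 0.844 TPM in control to 1.94 ± 0.453 with SAHA (-0.90 ± 0.173, adjusted p = 0.000891), to 1.36 ± 0.295 with sonidegib (-1.21 ± 0.173, adjusted p = 0.00012) and to 0.723 ± 0.197 with the combination. DUSP7, a cytoplasmic ERK phosphatase related to DUSP6, also fell with SAHA (-0.52 ± 0.148, adjusted p = 0.0102) and with sonidegib (-0.52 ± 0.148, adjusted p = 0.0115). ETV1, the PEA3 relative of ETV4 and ETV5, rose to 11.7 ± 1.19 TPM with SAHA from 7.08 ± 1.98 in control and stood at 4.83 ± 1.06 in the combination (interaction -1.36 ± 0.257, adjusted p = 0.00214).

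**Figure D4:**
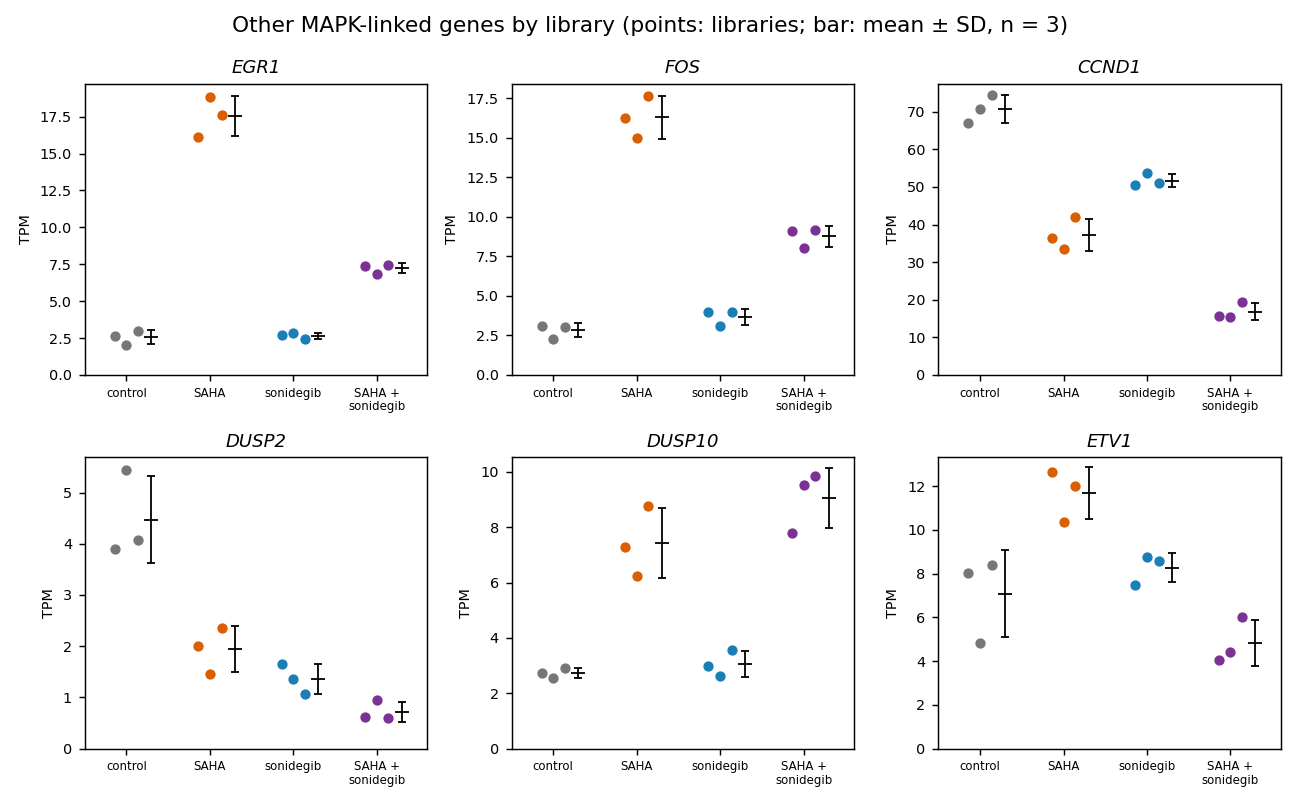
TPM (vertical axis, from 0) of EGR1, FOS, CCND1, DUSP2, DUSP10 and ETV1 by library in the 4 groups (horizontal axis); points are libraries, and the black bar is the mean ± SD of 3. EGR1 and FOS are highest with SAHA and intermediate in the combination, CCND1 is lowest in the combination, and DUSP10 is high in both groups with SAHA.

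In the comparisons with control, genes of the cascade's core were called at shares near those of all tested genes. Of 22 genes from adaptors to ERK and its RSK kinases, 8 rose and 5 fell with SAHA, 5 rose and 8 fell with sonidegib and again with the combination against control, with medians of 0.12, -0.08 and -0.07. All tested genes rose and fell at 31.8% and 26.9% with SAHA, 26.1% and 29.2% with sonidegib, and 29.7% and 34% with the combination. Against sonidegib the combination raised 2 and lowered 7 (17.5% and 21% of all tested genes), against SAHA it raised none and lowered 8 (18% and 33%), and the interaction was called higher for 2 and lower for 4 (11.8% and 19.7%). MAPK3, which encodes ERK1, rose with SAHA (1.06 ± 0.0739, adjusted p = 2.88e-07), with sonidegib (0.83) and with the combination (0.87). ARAF, a RAF kinase, fell from 25.6 ± 0.655 to 9.54 ± 0.669 TPM with SAHA (-1.34 ± 0.0841), and HRAS fell from 37.7 ± 0.124 to 20.4 ± 1.72 TPM with sonidegib (-0.86 ± 0.0676). Of 8 genes of the EGFR family and its ligands 6 were tested, of which 3 rose and 2 fell with SAHA, 4 rose and none fell with sonidegib, and 3 rose and 2 fell with the combination against control, beside the shares of all tested genes given above. Against SAHA the combination raised 3 of these 6 genes and lowered 1 (18% and 33% of all tested genes), with a median of 0.18. EGFR itself was called in none of the 6 comparisons, and its ligands differed in pattern. AREG rose from 1.54 ± 0.617 TPM in control to 20.6 ± 1.3 with SAHA (3.11 ± 0.223, adjusted p = 3.58e-07) and was lower in the combination, at 13.5 ± 2.74 TPM (-0.59 against SAHA, adjusted p = 0.045; interaction -1.23, adjusted p = 0.012). HBEGF had 0.63, 1.13 and 1.2 TPM in control, 5.84 ± 0.533 with SAHA, 3.06 ± 0.18 with sonidegib and 9.14 ± 0.403 in the combination (2.36 ± 0.125, adjusted p = 2.65e-08).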

How the data were processed

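RNA sequencing libraries were made from total RNA of MDA-MB-468 cells, 3 per group, extracted with TRIzol per the labels' protocols. The authors deposited TPM in 1 column per library, with column sums between 999999 and 1000001. Bowtie2 2.4.1 and GRCh38 are named in the submitters' processing notes; the quantifier, annotation, strand and poly(A) selection are not given in the sources used here. Groups and replicate numbers came from sample titles. No pair of libraries was identical. Positions are from GENCODE 29 (GRCh38), to which 58611 of 59324 identifiers matched.

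The model was limma 3.58.1 (R 4.3.3) on log2(TPM + 1): 13937 genes at a mean of 1 TPM or more, 4 group means, 8 residual degrees of freedom, eBayes with trend, two-sided, Benjamini-Hochberg within each of 6 comparisons across all genes tested, called under 0.05. The procedure was tested on simulated data in which few genes changed, as many up as down, in the SAHA group only. Many more genes were called in the real data, so the simulation does not bear on the choice of scaling. Members and lists were chosen with earlier results of these data known. All members are named. From the other lists, at most the 3 largest called changes per comparison are named, with MAPK3, CCND1, EGR1, CIC and EGFR. ERBB2, HBEGF, AREG, DUSP7, DUSP8 and DUSP16 were chosen after their values were seen. Some genes that this rule covers are not reported here. The most similar genes were found among those with at least 10 TPM in some group. Alternatives changed the pseudocount (0.1, 5), the filter (none, 5 TPM), the scaling, the variance model, the samples fitted, a replicate block and each library.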

Additional observations from a re-analysis of the deposited data

Results flagged for a closer look

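For 6 of the 10 genes the response to SAHA was called different between cells with and without sonidegib, in each case lower. The test was a limma test of the difference itself (the interaction, n = 3 libraries per group, Benjamini-Hochberg over 13937 genes). By it 19.7% of all tested genes were called lower and 11.8% higher. The log2 differences of the 6 were -2.13 for DUSP5, -0.58 for ETV5, -0.56 for ETV4, -0.52 for DUSP4, -0.48 for SPRY2 and -0.43 for DUSP1. SPRY2 lost its call in 9 of 22 alternatives and DUSP1 in 14 of 22. For DUSP5, DUSP4 and ETV5 SAHA alone was called higher and SAHA after sonidegib was not called. For ETV4 and SPRY2 SAHA alone was not called and SAHA after sonidegib was called lower. DUSP1 was called higher in both settings, by 1.39 and 0.96. The interaction spans libraries with and without listed 5S ribosomal RNA. All 6 genes stayed called in a fit without ribosomal RNA and mitochondrial genes, and other differences between these libraries were not tested.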

How the results depend on the processing

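In 23 alternatives per comparison (22 for the interaction), the number of the 10 genes called stayed within 1.5 times the main count except for the combination against sonidegib, with 5 calls. There it was 3 with no filter and 2 with only the compared groups fitted, and it ranged from 2 to 6 when each library was left out. Leaving out each library gave 6 calls throughout for SAHA, 2 to 4 for sonidegib, 7 to 8 for the combination against control, 8 to 9 against SAHA and 4 to 6 for the interaction. Of 1352 values of single genes, 1268 kept direction and side of the threshold or stayed uncalled, 51 lost a call, 33 gained one and none with a call turned. The cause was not tested. By correlation across genes, the replicate numbers gave little sign of pairing. That measure does not register a shift common to all genes of a library, so whether replicates are paired stays undecided. Deviations from the group means correlated at -0.06 to 0.11 for same-numbered libraries, over 0.1 in 1 of 18 pairs. Libraries of unlike number correlated at -0.11 to 0.10. None of 12 libraries had its own number as best match in every other group, a strict rule that partial pairing would also fail. With a replicate block the counts were 6, 3, 7, 7, 9 and 7 for SAHA, sonidegib, the combination against control, against sonidegib and against SAHA, and the interaction. The block added calls for SPRY4 (0.32) and DUSP4 (-0.20) against sonidegib and for PHLDA1 in the interaction (-0.43, limma adjusted p = 0.00673). Over all tested genes it raised the number of calls in each comparison. In the interaction the calls went from 1642 higher and 2739 lower to 1864 and 2934. TPM keep no counts, so what depth limits cannot be stated.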

Other observations

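DUSP8, DUSP10 and DUSP16 encode phosphatases that act mainly on JNK and p38. DUSP10 had 2.74 ± 0.17 TPM in control, 7.43 ± 1.27 with SAHA, 3.06 ± 0.48 with sonidegib and 9.06 ± 1.09 in the combination (n = 3 each). Its change in the combination against sonidegib was 1.31 ± 0.134 (limma adjusted p = 2.48e-05), and the interaction was not called (0.15 ± 0.19, adjusted p = 0.595). None of the 3 fell against control. DUSP8 and DUSP10 rose with SAHA, DUSP8 and DUSP16 with sonidegib, and DUSP10 and DUSP16 in the combination. Of all tested genes 31.8%, 26.1% and 29.7% rose in these comparisons, and 26.9%, 29.2% and 34% fell. Against sonidegib the combination raised 1 of the 3 and lowered 1 (17.5% and 21% of all tested genes). Against SAHA it raised 1 and lowered none (18% and 33% of all tested genes), with a median of 0.26. The interaction was called below 0 for 2 and above 0 for none (19.7% and 11.8% of all tested genes).

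ETS factors and their partners, 16 of a list of 17 tested, had 7 higher and 3 lower with SAHA, 3 and 4 with sonidegib and 6 and 8 with the combination against control, with medians of 0.19, -0.04 and -0.27. All tested genes were higher and lower at 31.8% and 26.9%, 26.1% and 29.2%, and 29.7% and 34% in these comparisons. Against sonidegib the combination had 5 of the 16 higher and 6 lower (17.5% and 21% of all tested genes). Against SAHA it had 2 higher and 4 lower (18% and 33% of all tested genes), with a median of -0.13. The interaction was called below 0 for 4 and above 0 for none (19.7% and 11.8% of all tested genes). CIC encodes the repressor that ERK signalling removes from genes such as ETV4, ETV5 and DUSP6. CIC rose from 18.2 ± 0.802 TPM in control to 27 ± 2.3 with SAHA, 30.5 ± 2.15 with sonidegib and 34 ± 0.734 in the combination (0.54, 0.72 and 0.87 on the log2 scale, limma adjusted p = 6.37e-05, 9.59e-06 and 1.19e-06).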
